A study of Gallus gallus with 3 samples.

Results

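A set of 33 named genes was nearly restricted to chicken embryonic stem cells (ESCs) when these were compared with cultured primordial germ cells (cPGCs) by RNA sequencing. Each gene had at least 100 counts in the ESC library and at most 5 counts in each of the 2 cPGC libraries. A gene also had to carry a symbol and to lie outside chromosome W and the mitochondrial genome, and symbols starting with HOX, CDX, TBX, WNT, FOX or CLDN were left out. Of the 19152 genes counted, 66 met the count limits, all of them off chromosome W and the mitochondrial genome. Of these, 16 had no symbol and 17 of the 50 named genes had an excluded stem, namely 13 HOX genes, 3 CDX genes and 1 WNT gene. The 50 genes made up 0.631% of the 7919 named genes outside W and the mitochondrial genome with at least 100 ESC counts. The 33 genes were thus chosen by their measured counts in these libraries, so the difference between the cell types is a description and was not tested.

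The germ cells were cPGCs, cultured chicken germ cells of the migratory stage, represented by replicates 2 and 3. The somatic counterpart was an ESC culture derived from the early embryo, represented by replicate 2 only. No transgene, treatment, sex or age was given for either cell type in the sources used here, and both were grown in culture, so neither is a tissue of the embryo. With 1 ESC library analysed here, the values of that cell type had no replicate check. Library totals ranged from 19754278 to 20568106 counts. CPM is the unit of counts scaled to the size of each library, here the total adjusted by the trimmed-mean scaling described below. On these adjusted sizes the level of 3 counts lay between 0.134 CPM (cPGC replicate 2) and 0.169 CPM (ESCs). Germ cell markers followed the labels: DAZL, DDX4, MAEL, PIWIL1 and TDRD5, the 5 of 6 listed markers matched, summed to 3654 and 3975 CPM in the cPGC libraries and to 68.5 CPM in the ESC library, where TDRD5 was at 0. Not all were near 0 in ESCs, where PIWIL1 had 833 counts and DDX4 had 352. The 8 pluripotency markers summed to 612 and 988 CPM in cPGCs and to 1051 CPM in ESCs. Of the 8, 7 were less than 2-fold apart from at least 1 cPGC library, NANOG and Pou5f3 among them. LIN28B was higher in ESCs, with 564 and 583 counts in the cPGC libraries and 1831 in ESCs. KLF4, which the paper places among pluripotency-associated genes, was not in this list. It was lower in ESCs, with 57 and 49 counts in the cPGC libraries and 17 in ESCs. In bulk samples such as these, fewer cells of a type and less RNA per cell cannot be told apart.

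By their known roles, assigned after the genes were known, 12 of the 33 genes were placed under epithelial headings, with no background share to compare. An epithelium is a sheet of cells that joins neighbours side by side, rests on a laminin-rich basement membrane and controls what crosses it through channels, transporters and secreted proteins. ETS and Grainyhead-like factors are known to control genes of such sheets. Other genes of the set act in the gastrulating embryo, where FGF ligands and antagonists of TGF-beta family signals pattern the forming mesoderm.

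The 33 genes together had 62 counts in cPGC replicate 2, 63 counts in cPGC replicate 3 and 8320 counts in the ESC library. On the CPM scale these sums were 2.77, 3.02 and 468. In TPM, a unit of transcript abundance that accounts for gene length and so allows different genes to be compared, the sums were 5.37, 3.94 and 577. No gene overlapped between the groups, which the limits fix by construction. Between the cPGC libraries, 13 genes were higher in replicate 2, 12 were higher in replicate 3 and 8 had equal counts. The rule held both libraries to at most 5 counts, so nothing is read from their likeness on these genes. In cPGCs, 7 genes were at 0 in replicate 2, 8 were at 0 in replicate 3 and 2 were at 0 in both. At most 3 counts were found for 26 genes in replicate 2, for 28 in replicate 3 and for 23 in both, and at this depth so low a count says little more than a count of 0.

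**Figure D1:**
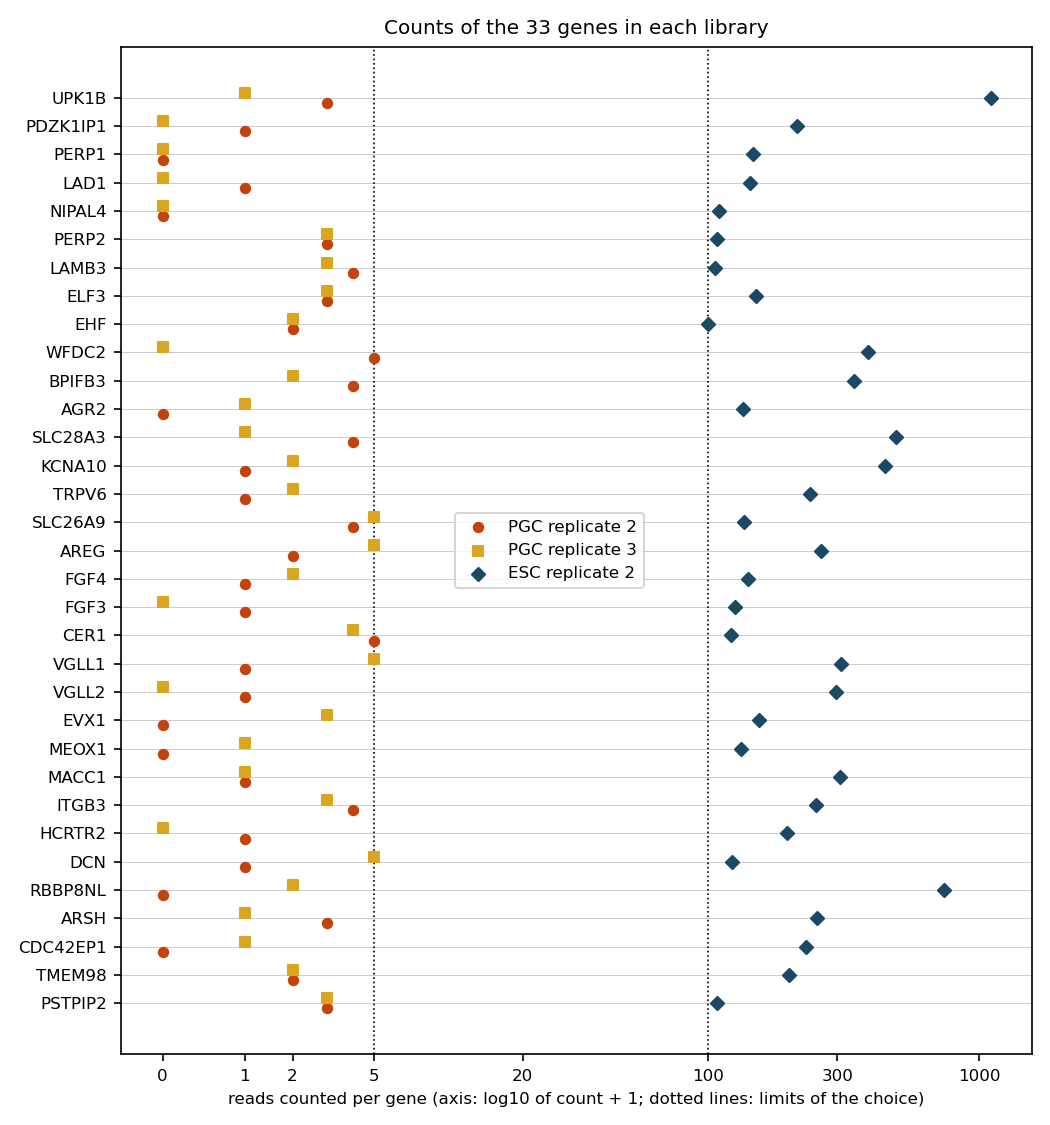
Counts of the 33 genes in each library, on an axis of log10 of the count plus 1, with 1 point per library and the genes ordered by role group and then by ESC count. Dotted lines mark the limits of the choice. The ESC points run from 100 (EHF) to 1101 (UPK1B), and every cPGC point lies at 5 counts or fewer.

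For most of the genes the level reached in ESCs was below the median of the named genes with at least 100 ESC counts. In 15 of the 33 genes the ESC count was 100 to 150, near the limit of the choice. The ESC counts ran from 100 to 1101 with a median of 196, and the 5 genes with the most counts, UPK1B, RBBP8NL, SLC28A3, KCNA10 and WFDC2, held 38.2% of them. The ESC level per gene length ran from 3.33 TPM (LAMB3) to 89.8 TPM (WFDC2), with a median of 11.6 TPM. Only WFDC2, UPK1B and SLC28A3 were above 32.5 TPM, the median of the named genes with at least 100 ESC counts. All 33 genes took 0.0405% of the ESC counts (95% Wilson interval 0.0396% to 0.0413%, counting error only).

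The median log2 ratio of ESC to cPGC over the set was 6.00 (SD 0.10 between the 2 cPGC libraries), compared with -0.03 over the 14489 genes that reached 10 counts in any library. Both ratios share the ESC library, and the rule limited the counts of both cPGC libraries. The SD is therefore no measure of how well the ratio repeats between cultures. Ratios of single genes ran from 4.38 to 8.74 on this log2 scale across both cPGC libraries. A gene was called higher or lower in ESCs if its CPM differed by 2-fold or more, the same way, from both cPGC libraries. By this measure 15.8% of all genes tested were higher in ESCs and 21.6% were lower. All 33 genes were called higher, under both scalings given here, and since the limits on counts lead to this call nothing is read from it. Scaling by total counts instead of trimmed means moved the median over all genes to -0.34 on the log2 scale, and the share of higher genes among those called went from 42.3% to 29.8%.

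**Figure D2:**
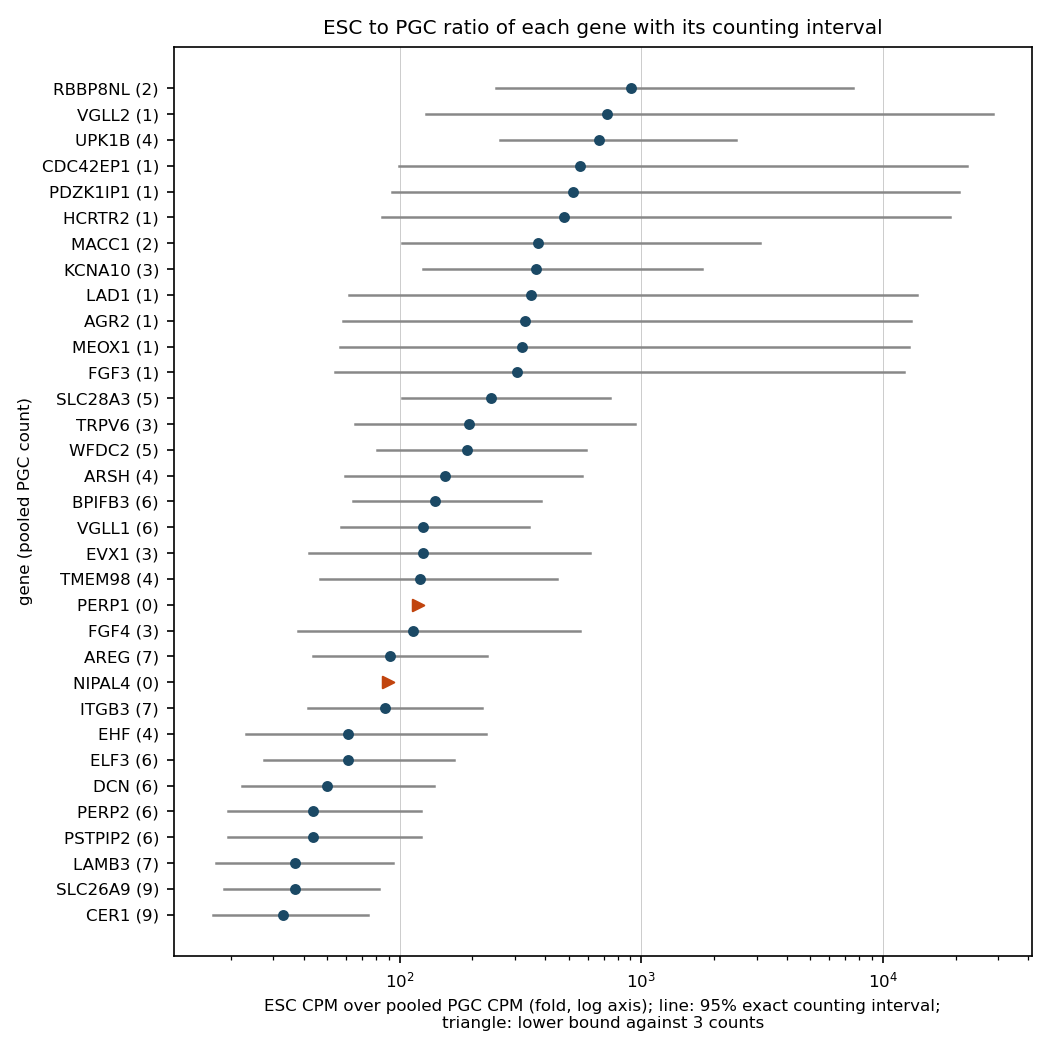
Fold of the ESC level over the pooled cPGC level for each of the 33 genes, on a logarithmic axis, with bars for the 95% exact counting interval. Triangles mark genes without any cPGC count, at their fold against 3 pooled cPGC counts, which lies above the lower 95% limit. The folds run from 33.0 (CER1) to 907 (RBBP8NL), and the widest intervals belong to genes with 1 cPGC count.

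Genes of the epithelial surface and barrier formed the largest role group, with UPK1B, PDZK1IP1, LAD1, LAMB3, NIPAL4, PERP1 and PERP2. UPK1B (ENSGALG00000015079; galGal5 chromosome 1, 80776274 to 80787066, minus strand) encodes a tetraspanin of the urothelial surface plaque. It had 3, 1 and 1101 counts in cPGC replicate 2, cPGC replicate 3 and ESCs, the highest ESC count of the set, and reached 72.7 TPM in ESCs. Its ESC level was 670-fold that of the pooled cPGC libraries (95% interval 261 to 2463, from counting error only). PERP genes encode tetraspan membrane proteins of desmosomes, the junctions that hold epithelial cells together. The chicken annotation holds a PERP1 and a PERP2, 8921 bases apart on chromosome 3 and on the same strand. PERP1 (ENSGALG00000027536; chromosome 3, 54693252 to 54709177) had 0, 0 and 147 counts, and PERP2 (ENSGALG00000027207; chromosome 3, 54675180 to 54684330) had 3, 3 and 108 counts. ESC levels of these neighbours were 14.9 and 4.93 TPM, and whether reads were shared between them was not examined. The ESC level of PERP1 was 119-fold the level of 3 counts over both cPGC libraries together. The lower 95% limit of its fold, from counting error only, was 95.8.

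NIPAL4 (ENSGALG00000039687; chromosome 13, 11353337 to 11360669) is a magnesium transporter-like membrane protein of the epidermis, mutated in a human skin-scaling disorder. It was the other gene at 0 in both cPGC libraries and had 110 ESC counts. Its ESC level was 89.2-fold that of 3 pooled cPGC counts, with a lower 95% limit of 71.4. LAD1 encodes ladinin, an anchoring filament protein of the basement membrane, and had 1, 0 and 143 counts. LAMB3, a beta chain of the laminin under epithelia, had 4, 3 and 106 counts and the lowest ESC level of the set. PDZK1IP1, a small epithelial membrane protein that binds PDZ-domain scaffolds, had 1, 0 and 214 counts. The scaffold PDZK1 itself went the other way, with 117, 123 and 14 counts, and was called lower in ESCs.

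ELF3 and EHF encode ETS transcription factors that are characteristic of epithelia. ELF3 (ENSGALG00000000616; chromosome 26, 313618 to 317551) had 3, 3 and 150 counts and EHF (ENSGALG00000007817; chromosome 5, 18764056 to 18794748) had 2, 2 and 100. Both had a ratio of 60.8 to the pooled cPGC libraries. Their relatives behaved differently. ELF5, the neighbour of EHF, was near 0 in every library with 0, 1 and 1 counts, SPDEF was below the 10-count filter, and ELF1 was called neither higher nor lower. Among 13 other epithelial transcription factors tested, 9 were called higher in ESCs and 1 was lower (8 and 2 under total counts). GRHL2, a Grainyhead-like regulator of junction genes, had 207, 162 and 1866 counts, and ESRP1, a regulator of epithelial splicing, had 206, 136 and 1578. Both were well above 5 counts in cPGCs, unlike ELF3 and EHF. KLF4, with 57, 49 and 17 counts, was the gene called lower. TP63, the regulator of stratified epithelia, had 495, 343 and 152 counts and was called neither. So were the other Grainyhead-like genes, GRHL1 with 427, 442 and 555 counts and GRHL3 with 319, 210 and 469.

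Structural epithelial genes that the rule did not select gave a mixed picture. Of 7 other tested genes in the keratin and uroplakin list, all of them keratins, 5 were called higher in ESCs and KRT20 was called lower. No other uroplakin was tested: UPK3A was below the filter with 1, 3 and 2 counts, and UPK1A, UPK2 and UPK3B were not matched. The simple-epithelium keratins KRT7 and KRT19 had 64, 106 and 5654 counts and 5, 35 and 5821 counts. Both far exceeded the genes of the set in ESC counts but had too many cPGC counts to enter it. KRT5, a keratin of basal cells, had 1, 0 and 78 counts and missed the ESC limit. Of 5 other hemidesmosome genes tested, ITGB4 was called higher with 13, 7 and 158 counts, ITGA6 was lower with 3877, 5460 and 1150, and COL17A1, DST and CD151 were neither.

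**Figure D3:**
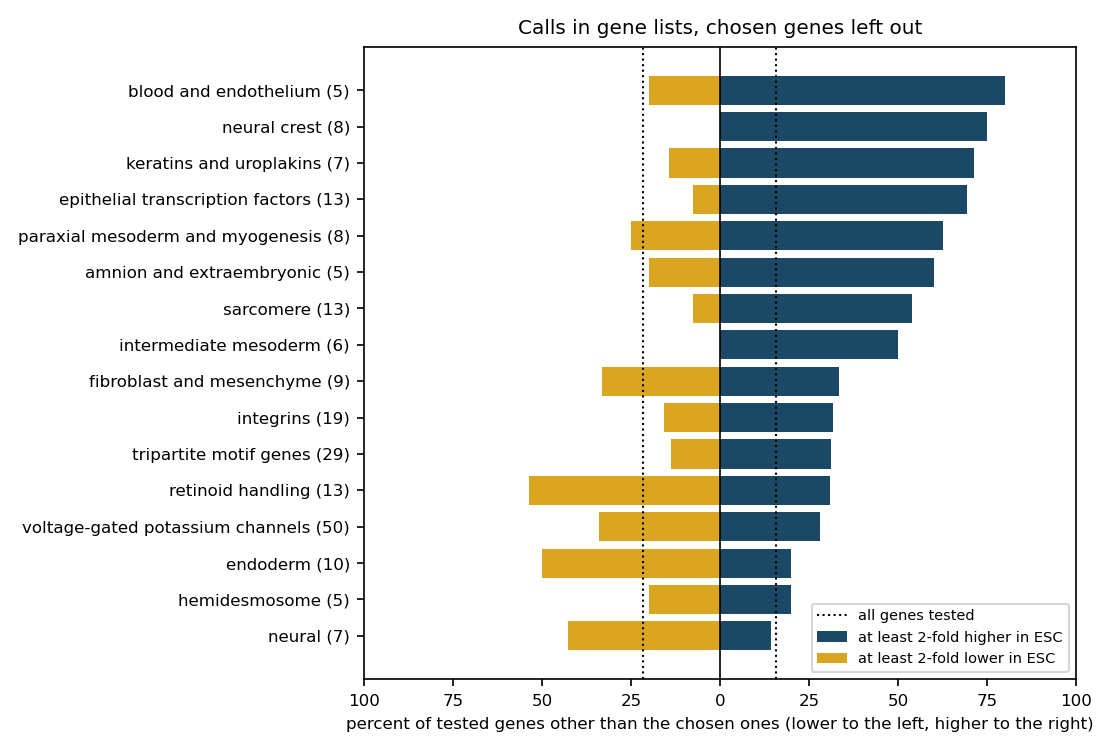
Percent of tested genes called higher (to the right) or lower (to the left) in ESCs in each gene list drawn, leaving out the 33 genes themselves. The number tested stands beside each name, and dotted lines mark all genes tested. The germ cell, pluripotency and solute carrier lists are not drawn. Among 13 epithelial transcription factors 9 are higher and 1 is lower, and among 13 genes of retinoid handling 4 are higher and 7 lower. The integrin and potassium channel lists hold every gene with a symbol starting ITGA, ITGB or KCN.

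Secreted and luminal epithelial proteins were represented by WFDC2, BPIFB3 and AGR2. WFDC2 (ENSGALG00000031164; chromosome 20, 10684937 to 10686040) is a small secreted protein with WAP domains. It had 5, 0 and 391 counts and the highest ESC level of the set at 89.8 TPM, since its annotated length was only 375 bases, the shortest of the set. The single cPGC library with WFDC2 counts gave 1.36 TPM, the highest cPGC level of any of the 33 genes. BPIFB3 belongs to the lipid-binding BPI fold family and had 4, 2 and 346 counts. Its neighbour and relative BPIFB2, 1242 bases away, had 0, 1 and 10 counts and was called higher. AGR2, a disulfide isomerase of mucus-secreting cells, had 0, 1 and 135 counts, while its neighbour AGR3 was at 0 in all 3 libraries.

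Channels and transporters comprised SLC28A3, KCNA10, TRPV6 and SLC26A9. SLC28A3 (ENSGALG00000012593; chromosome Z, 40166144 to 40179451), a sodium-coupled nucleoside transporter, had 4, 1 and 492 counts and 36.5 TPM in ESCs. KCNA10 (ENSGALG00000000441; chromosome 26, 1427486 to 1429339), a voltage-gated potassium channel, was the only single-exon gene of the set. It had 1, 2 and 451 counts and an ESC level 366-fold that of the pooled cPGC libraries (124 to 1781). TRPV6, an epithelial calcium channel, had 1, 2 and 238 counts, and SLC26A9, an epithelial chloride transporter, had 4, 5 and 136. The ratio of SLC26A9 was 36.8 (18.8 to 82.2), near the lower end of the set.

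Genes of the same channel and transporter families were called in both directions. TRPV1, TRPV2 and TRPV3 were called lower in ESCs, TRPV1 with 162, 96 and 15 counts, and TRPV4 was called neither. In the SLC26 family, SLC26A4 was higher with 22, 32 and 314 counts and SLC26A3, SLC26A6 and SLC26A8 were lower. KCNA2, next to KCNA10 on the chromosome, was higher with 4, 1 and 57 counts, as was KCNA3, while KCNA4 was lower with 14, 17 and 1. Across the 50 other tested genes with symbols starting KCN, 14 were higher and 17 lower (12 and 18 under total counts). These include KCNRG, which is not a channel subunit. Across all 239 other solute carriers tested, 47 were higher and 54 lower (37 and 68 under total counts), shares of 19.7% and 22.6% beside the 15.8% and 21.6% of all genes.

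Secreted signals and antagonists comprised AREG, FGF3, FGF4 and CER1. AREG (ENSGALG00000010866; chromosome 4, 45060436 to 45066903) encodes amphiregulin, a ligand of the EGF receptor made by epithelia. It had 2, 5 and 262 counts, a ratio of 91.1 (43.6 to 229). Its neighbour EREG, a second ligand of the family, had 6, 11 and 18 counts and was called neither. The receptors were present in both cell types: EGFR had 694, 1008 and 1862 counts, ERBB2 had 291, 286 and 869, and ERBB3 had 215, 234 and 981, all called higher in ESCs. Under total counts only ERBB2 and ERBB3 were called higher. ERBB4 was lower, with 1120, 793 and 231 counts.

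FGF3 and FGF4 are ligands of the FGF receptors with roles in gastrulation and in the inner ear and limb. They lie 26500 bases apart on the minus strand of chromosome 5, FGF4 at 17590651 to 17593587 (ENSGALG00000007562) and FGF3 at 17620088 to 17625226 (ENSGALG00000026853). FGF4 had 1, 2 and 140 counts and FGF3 had 1, 0 and 126, with ESC levels of 20.6 and 16.4 TPM. FGF19, the next gene 24498 bases from FGF4, had 59, 34 and 1074 counts and was called higher in ESCs. The calls of FGF3 and FGF4 themselves follow from the rule. Of 12 other tested genes of the FGF family, 7 were called higher, under total counts as well. These 12 include FGF12, FGF13 and FGF14, which are not ligands of the FGF receptors. FGF13 was among the 7 called higher, with 66, 175 and 631 counts, and FGF12 was called neither. FGF8, a ligand of the primitive streak, had 6, 8 and 214 counts and FGF18 had 9, 9 and 189, both just too high in cPGCs for the set. FGF14, not a receptor ligand, was the gene of the 12 called lower, with 72, 42 and 17 counts. Among the receptors, FGFR1 had 551, 737 and 1263 counts and FGFR4 had 97, 138 and 874, both higher in ESCs (FGFR4 only under total counts), and FGFR2 and FGFR3 were neither.

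CER1 (ENSGALG00000005434; chromosome Z, 31707297 to 31708392) encodes cerberus, a secreted antagonist of NODAL and BMP ligands made by the hypoblast and anterior endoderm. It had 5, 4 and 122 counts and the lowest ratio of the set at 33.0 (16.8 to 73.9). Of its relatives, SOSTDC1 was higher with 41, 32 and 346 counts, and GREM1 and SOST were lower. Of the ligands it binds, BMP4 had 17, 15 and 650 counts and BMP2 had 86, 72 and 452, both higher in ESCs, and NODAL was not analysed here. In the endoderm list, 2 of 10 genes tested were higher and 5 lower in ESCs, and SOX17, APOB and SHH were at 0 in the ESC library. The endoderm list summed to 17.2 and 15.1 CPM in cPGCs and 61.3 CPM in ESCs, and GATA4 alone had 7, 10 and 967 counts. Without GATA4 the list summed to 16.9, 14.6 and 6.87 CPM.

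**Figure D4:**
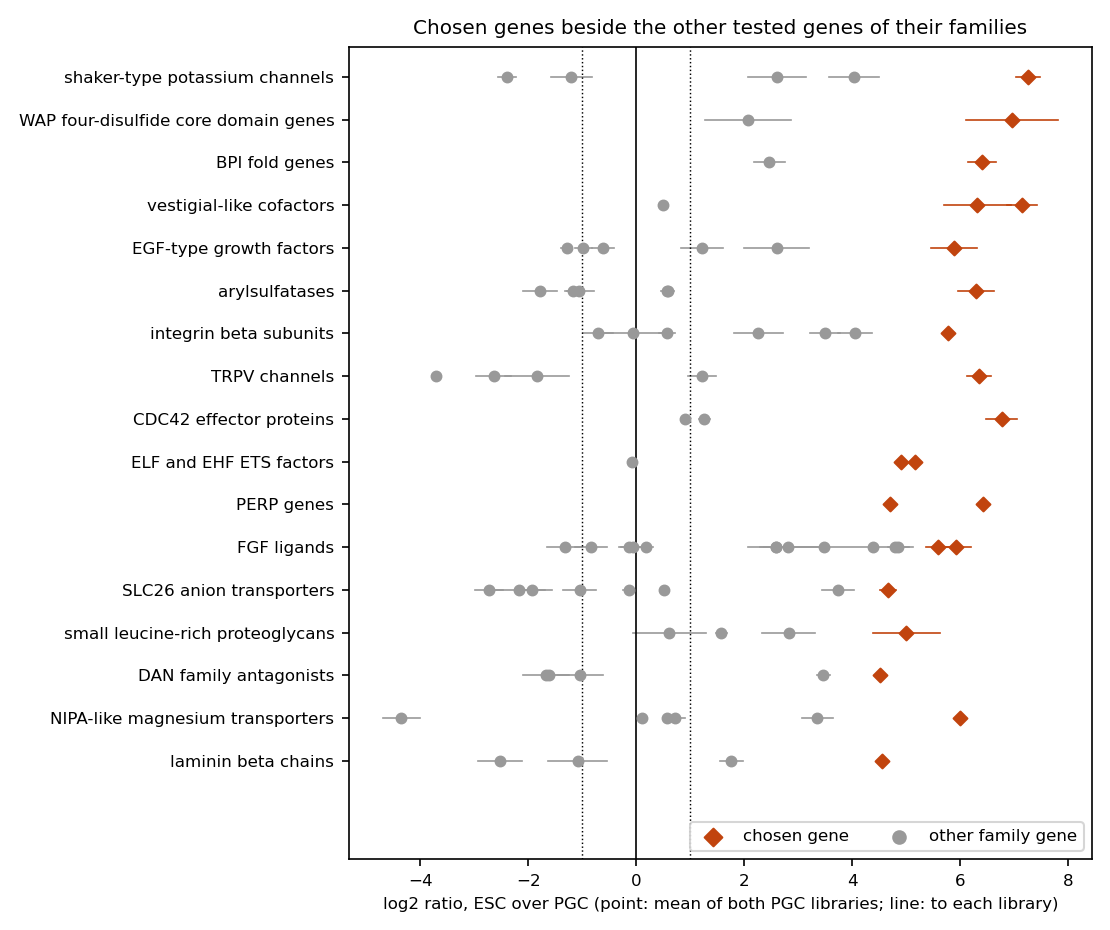
Log2 ratio of ESC to cPGC for the tested genes of the families of the 33 genes, for families with more than 1 tested gene, with diamonds for the chosen genes, circles for other family genes and lines to the ratio in each cPGC library. The chosen genes lie at 4.38 or higher in each cPGC library, and the 64 other tested family genes lie on both sides of 0.

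Developmental transcription factors and cofactors comprised VGLL1, VGLL2, EVX1 and MEOX1. VGLL1 and VGLL2 are vestigial-like cofactors that bind TEAD transcription factors. VGLL1 (ENSGALG00000006412; chromosome 4, 4375987 to 4381807) had 1, 5 and 309 counts and VGLL2 (ENSGALG00000014917; chromosome 3, 63207046 to 63212424) had 1, 0 and 296. The ratio of VGLL2 was 720, but with 1 cPGC count its interval ran from 128 to 28551. VGLL4, the family member with a repressor role, had 1472, 1489 and 1722 counts and was called neither. TEAD1 was higher in ESCs with 604, 575 and 1423 counts, and TEAD3 and TEAD4 were neither.

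EVX1 (ENSGALG00000037310; chromosome 2, 32772492 to 32775757), an even-skipped homeobox gene of the posterior primitive streak, had 0, 3 and 154 counts. MEOX1 (ENSGALG00000001191; chromosome 27, 3530597 to 3536176), a homeobox gene of the somites, had 0, 1 and 132. MEOX2, its close relative, was below the filter with 4, 1 and 7 counts. Of 8 other genes of paraxial mesoderm and myogenesis tested, 5 were higher and 2 lower in ESCs (3 and 2 under total counts). MSGN1, a presomitic mesoderm factor, had 0, 6 and 1030 counts and stayed outside the set by 1 count in cPGC replicate 3. MYOD1 and UNCX were lower, with 10, 6 and 1 counts and 45, 73 and 0 counts, and MYOG was at 0 in all 3 libraries.

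Adhesion, matrix and receptor genes comprised ITGB3, DCN and HCRTR2. MACC1, a regulator of the expression of a receptor gene, was grouped with them. ITGB3 (ENSGALG00000000379; chromosome 27, 2474195 to 2491225), the integrin beta 3 subunit of the vitronectin receptor, had 4, 3 and 250 counts. Its partner ITGAV was at similar counts in all libraries, with 1553, 1257 and 1192. Of 6 other integrin beta subunits tested, ITGB4, ITGB5 and ITGB6 were higher in ESCs and none was lower. MACC1, a regulator of MET expression in human tumours, had 1, 1 and 307 counts, whereas MET itself had 107, 117 and 141 and was called neither. HCRTR2, an orexin receptor known from the brain, had 1, 0 and 196 counts, and its ligand gene HCRT was not analysed here. DCN, the matrix proteoglycan decorin, had 1, 5 and 123 counts. The fibroblast and mesenchyme list that holds DCN, with 11 of 12 markers matched, summed to 671 and 762 CPM in cPGCs and to 139 CPM in ESCs, and 3 of its 9 other tested genes were higher and 3 lower. Without COL3A1, its most abundant gene, the list summed to 101, 360.0 and 126 CPM, so the ESC sum then lay between the cPGC sums.

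Of the remaining genes, RBBP8NL (ENSGALG00000045938; chromosome 20, 8153748 to 8163682), a relative of the DNA end resection factor RBBP8, had 0, 2 and 745 counts and the highest ratio with a finite interval, 907 (250 to 7500). CDC42EP1, an effector of the small GTPase CDC42, had 0, 1 and 230 counts. TMEM98, a membrane protein, had 2, 2 and 199. ARSH, an arylsulfatase, had 3, 1 and 253 counts, while ARSB and ARSK of the same family were lower in ESCs. PSTPIP2, a membrane-shaping F-BAR protein, had 3, 3 and 108 counts, the same as PERP2.

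Markers of other lineages were also measured. The neural list was lower in ESCs as a sum, at 646 and 751 CPM in cPGCs and 143 CPM in ESCs, with 9 of 13 markers matched, and 1 of 7 tested genes was higher and 3 were lower. Without ELAVL4, its most abundant gene, the sums were 149, 290.5 and 126 CPM. The blood and endothelium list, with 6 of 13 matched, summed to 15.6, 17.7 and 68.6 CPM, and 4 of its 5 tested genes were higher in ESCs, KDR with 11, 22 and 628 counts among them. The neural crest list had 6 of 8 tested genes higher and none lower, and TFAP2A among the 6 was also in the epithelial transcription factor list. In the sarcomere list 7 of 13 were higher and 1 lower, and in the intermediate mesoderm list 3 of 6 were higher and none lower. In the amnion and extraembryonic list 3 of 5 were higher and 1 lower, and KRT7 among the 3 was also in the keratin list. The part of any such cells in the levels of the 33 genes was not tested. Of 19 other tested genes with symbols starting ITGA or ITGB, 6 were higher and 3 lower (5 and 5 under total counts). These include genes such as ITGB1BP3 and ITGB3BP that are not integrin subunits. Of 13 genes of retinoid handling 4 were higher and 7 lower. Of 29 tripartite motif genes 9 were higher and 4 lower, and this direction turned to 5 and 8 under total counts. Across all lists together, with the germ cell and pluripotency markers left out, 126 of 442 tested genes outside the set were higher in ESCs and 103 lower, shares of 28.5% and 23.3% beside 15.8% and 21.6% of all genes. Under total counts the balance turned, to 106 higher (24.0%) and 127 lower (28.7%), beside 11.3% and 26.7% of all genes.

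Families and neighbours were read in the same way. Of 64 tested relatives of the 33 genes, 22 (34.4%) were higher in ESCs and 15 (23.4%) were lower (20 and 19 under total counts), with a median log2 ratio of 0.51, and a further 19 relatives were below the filter. The 2 genes that flank each of the 33 on the chromosome included 62 that were not in the set. Of the 47 of these that were tested, 18 (38.3%) were higher and 6 (12.8%) were lower, with a median log2 ratio of 0.61. Over all genes tested the shares were 15.8% higher and 21.6% lower. Some flanking genes, such as FGF19, KCNA2 and BPIFB2, were also counted among the relatives, so the tallies of relatives and flanking genes are not independent. LAMB3 was flanked by CAMK1G with 25, 18 and 159 counts and by G0S2 with 5, 5 and 41, and LAD1 by the troponin genes TNNI1 with 1, 1 and 16 and TNNT2 with 2, 0 and 34. All 4 were called higher in ESCs. At other loci the flanking genes did not follow, as at VGLL1, where HTATSF1 had 3984, 4017 and 2465 counts, and at SLC28A3, where NTRK2 was lower with 19, 47 and 3.

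The position of the genes was not part of the rule beyond the exclusion of W and the mitochondrial genome. Microchromosomes, the small gene-dense chromosomes of birds, here taken as chromosome 11 and higher numbers, held 12 of the 33 genes (36.4%). The same share was 34.6% for named genes with at least 100 ESC counts and 34.1% for all named genes. Chromosome 26, singled out after its value was seen, held 5 genes, ELF3, LAD1, KCNA10, SLC26A9 and LAMB3. This was a share of 15.2% beside 1.65% of the named genes with at least 100 ESC counts. By the same measure chromosomes 20 and 27 each held 3 genes, 9.09% of the set beside 2.24% and 1.72%. Of the 234 other tested genes on chromosome 26, 69 (29.5%) were called higher in ESCs. Other chromosomes reached similar shares, 30.7% on chromosome 24 and 32.6% on chromosome 33. The median annotated length was 1520 bases and the median number of exons was 7, compared with 2314 bases and 10 exons in the named genes with at least 100 ESC counts. Counts grow with gene length, and the cPGC limit was set on counts. Length and exon number were therefore not independent of the rule, and nothing is read from this difference.

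**Figure D5:**
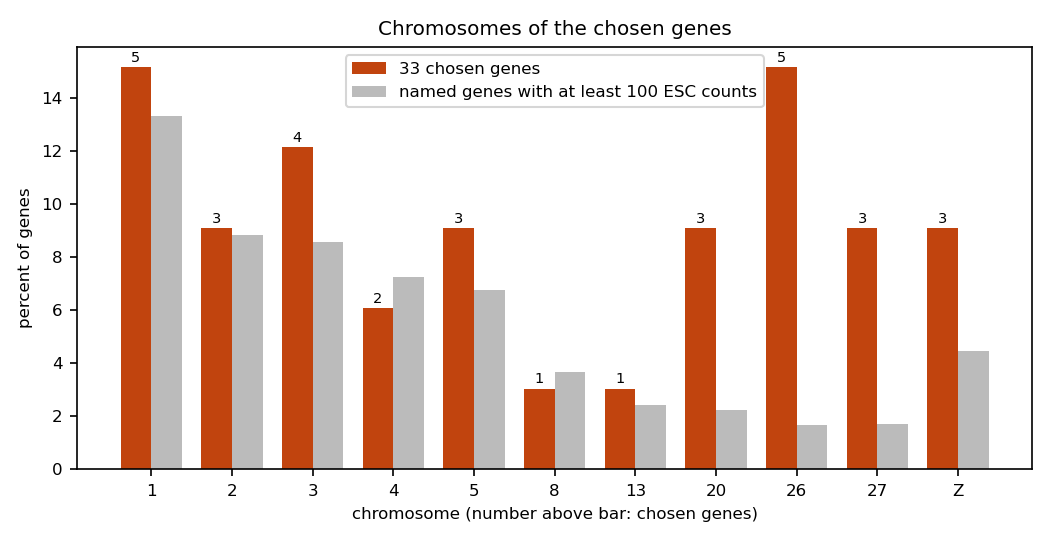
Share of the 33 genes on each chromosome that holds any of them, with their number above the bar, beside the share of the named genes with at least 100 ESC counts, in percent. Chromosomes 1 and 26 each hold 15.2% of the set, against 13.3% and 1.65% of the comparison genes.

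The limits on counts cut through a continuum. The genes just inside the ESC limit were EHF with 100 ESC counts, LAMB3 with 106 and PERP2 with 108, and those just outside it were SCGN with 89, FRMD7 with 85 and NRARP with 83. At the cPGC limit, 6 genes of the set had 5 counts in 1 library, WFDC2, VGLL1, AREG, SLC26A9, DCN and CER1. Just outside were MSGN1, MFAP2 with 1, 6 and 939 counts and APLNR with 4, 6 and 302. In all, 30 further named genes with at least 100 ESC counts had a highest cPGC count of 6 to 10.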

How the data were processed

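RNA sequencing of 3 libraries was used, cPGC replicates 2 and 3 and ESC replicate 2, grouped by sample title. Total RNA had been extracted with TRIzol. The paper names alternative sequencing providers, instruments and read lengths without assigning them to libraries. Whether they differed between the cell types was not examined. As the methods of the study state, the authors aligned paired-end reads to the Ensembl transcripts of galGal5 with TopHat and Bowtie 2 and counted them per gene with featureCounts. Aligner versions and the strand setting are not given in the sources used here, and no exon of the 33 genes overlapped an exon of another gene. The submitters' processing notes also name bcl2fastq 1.8.4 and MultiQC 1.7. The deposited counts are whole numbers per gene, not normalized. The authors' second deposited table holds 16030 genes, a symbol for most of them, a normalized signal that equals the counts after division by a single factor for each library (in 100% of values, tolerance 1e-06), and fold changes and p-values of the authors' own DESeq2 comparison, which were not used. Counted over both deposited tables, a further 4 per-sample columns were headed replicate 1 of the cell types, ESCs included. The same replicates appear in both tables, so these columns are not 4 separate libraries. They matched no sample label and were not used, so a model that includes ESC replicate 1 was not analysed here. The authors' second table gave no symbol for 4226 genes.

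Genes under 10 counts in every library were removed (4663, leaving 14489). Scaling used the TMM method (trimmed mean of M-values) in edgeR 4.0.16 under R 4.3.3. Log2 ratios used a prior count of 2. Folds are ratios of ESC CPM to pooled cPGC CPM with exact Clopper-Pearson 95% intervals, which cover counting error only. With no cPGC count the fold is given against 3 counts over both libraries, which is not a confidence limit, beside the lower limit of the exact interval. TPM were computed from counts and deposited lengths. Groups were compared without a model or p-values, because the rule used this contrast and the ESC group had 1 labelled library. The code for ratios and calls was tested on simulated data.

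The named genes were the 20 with the highest ESC TPM, those at 0 in both cPGC libraries and those in the gene lists. The rest were named to account for the whole set, and the families, partners and neighbours were added with values known. The 33 genes and all lists were chosen with earlier results of these data known. Alternatives were other count limits, scalings and prior counts, and leaving out each cPGC library. A planned search for promoter motifs was not run, since no promoter sequence was used here.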

Additional observations from a re-analysis of the deposited data

How the results depend on the processing

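The number of genes depended on the count limits, being 65 with at least 50 ESC counts, 15 with at least 200, 17 with at most 2 cPGC counts and 63 with at most 10. Without 1 cPGC library it ranged from 42 (without replicate 2) to 55 (without replicate 3). The median log2 ratio moved from 6.00 to 5.78 under scaling to total counts and to 7.20 with a prior count of 0.5, and ranged from 6.00 to 6.14 when 1 cPGC library was left out. Genes without any cPGC count went from 2 to 0 with at least 200 ESC counts and ranged from 7 to 8 when the other cPGC library alone was used. Genes on microchromosomes went from 12 of 33 to 5 of 15 with at least 200 ESC counts. With unnamed genes included they were 21 of 49, a larger share than 12 of 33, so the share given above holds for named genes only. The shifts listed here follow from the limits, the need for a symbol, the scaling, the prior count and the libraries themselves. The other 16 alternatives kept their values within 1.5 times, or within 1 SD for the median. The rule limited both cPGC libraries behind that SD, so nothing is read from staying within it. Among the 16, the ESC sum of 577 TPM was set beside 468 CPM, which are unlike units. Also among them were the counts of list, neighbouring and family genes called higher under total counts and without each cPGC library. These counts were chosen after seeing the data. Under total counts the genes called lower went from 103 to 127 in the lists, from 15 to 19 in the families and from 6 to 7 among neighbours, so in the lists lower calls then outnumbered higher ones (106). No paired analysis was possible because the labelled libraries of the cell types share only replicate number 2. Depth limits the fold of genes with 0 or 1 cPGC counts, and with 1 ESC library the spread among ESC cultures was not measured.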
